A study of Mus musculus with 9 samples.

Results

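The polymerase II factors described here are 10 genes of the machinery that starts, pauses and releases transcription. They are Gtf2e1 and Gtf2e2 of TFIIE, Supt4a and Supt5 of DSIF, Nelfa, Nelfb and Nelfe of NELF, Cdk9 and Ccnt1 of P-TEFb, and Supt6, which encodes the histone chaperone SPT6. They were chosen by their known function and make up 10 of the 46078 genes in the count files. Matching was by symbol and Ensembl identifier, and each member was found once. All 10 passed the filter on low counts in each of the 3 comparisons, with at least 1173 counts in every library.

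The libraries came from EGFP-SSC, a mouse line of spermatogonial stem cells (SSCs) of wild-type genotype that expresses green fluorescent protein. At 0 h, the cells grew in normal culture on feeder fibroblasts whose division had been stopped with mitomycin C. At 24 h and 48 h, they had been mixed with somatic cells from the testes of mouse pups given busulfan, in medium with retinoic acid, BMP-4/7, activin A, testosterone, FSH and BPE, and the green cells were then sorted by flow cytometry. Each time point had 3 libraries labelled as biological replicates, and RNA was selected by its poly-A tail. All 9 libraries belong to this 1 line, so the p-values measure the spread among its cultures only. Feeders, medium and somatic partner cells changed together with time and cannot be told apart from it.

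RNA polymerase II is joined at promoters by general transcription factors, of which TFIIE is a pair of subunits that brings in and stimulates the helicase and kinase of TFIIH. Soon after the start, DSIF and NELF bind the polymerase and hold it near the promoter. P-TEFb, a kinase made of CDK9 and cyclin T, then phosphorylates NELF, DSIF and the tail of the polymerase, NELF leaves, and DSIF and SPT6 travel on with the elongating enzyme. These factors act in every cell type, and inhibition of P-TEFb is a known brake on transcription in the early germ cells of flies. The study took GTF2E2 and SUPT5H further from a pull-down with modified histone H3 peptides, so the level of their transcripts over the co-culture is 1 of the questions the libraries can address.

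Promoter sequence is shown for 3 members: Cdk9, whose level passed a test between time points, and the elongation pair Supt5 and Supt6. The log2 values of this pair at 48 h against 0 h had opposite signs, and neither passed the test. The sequences are RefSeq promoters of GRCm38.p6, 300 bases each around the start that RefSeq gives, read 5′ to 3′ on the strand of the gene. For Cdk9 and Supt6, the GENCODE gene given below starts further upstream, outside this window. Capitals mark matches, on either strand, to the motifs named after them. The windows lie at chr2:32712735-32713034 (Cdk9), chr7:28338670-28338969 (Supt5) and chr11:78245654-78245953 (Supt6), all on the minus strand.
Cdk9: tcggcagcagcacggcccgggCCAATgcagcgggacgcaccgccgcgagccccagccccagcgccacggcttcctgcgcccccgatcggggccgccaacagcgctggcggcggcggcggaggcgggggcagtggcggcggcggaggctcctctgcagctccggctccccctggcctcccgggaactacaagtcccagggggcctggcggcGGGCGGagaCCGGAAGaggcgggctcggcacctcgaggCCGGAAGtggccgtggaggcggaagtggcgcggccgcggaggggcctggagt
Supt5: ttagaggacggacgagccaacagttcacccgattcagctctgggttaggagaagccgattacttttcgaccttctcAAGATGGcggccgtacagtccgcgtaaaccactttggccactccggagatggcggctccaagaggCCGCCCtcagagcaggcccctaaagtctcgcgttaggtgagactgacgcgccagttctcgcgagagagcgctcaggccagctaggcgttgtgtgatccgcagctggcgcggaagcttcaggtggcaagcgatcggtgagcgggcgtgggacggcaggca
Supt6: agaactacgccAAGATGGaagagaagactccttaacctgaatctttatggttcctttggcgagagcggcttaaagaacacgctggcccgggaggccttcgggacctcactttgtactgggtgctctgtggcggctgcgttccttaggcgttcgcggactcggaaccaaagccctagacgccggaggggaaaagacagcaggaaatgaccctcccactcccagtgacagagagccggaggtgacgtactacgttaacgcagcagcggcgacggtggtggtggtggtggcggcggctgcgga

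The table of RefSeq promoters matched 8 of the 10 members, and Nelfe and Gtf2e2 had no entry in it. The GC box, searched as GGGCGG on both strands, was found in 7 of the 8 member promoters and in 35.7% of all 32851 promoters of the same length. The core of the YY1 motif, searched as AAGATGG, was found in 5 of the 8, those of Supt4a, Supt5, Supt6, Nelfa and Gtf2e1, and in 6.34% of all promoters. The ETS core, searched as CCGGAAG, was found in 3 of the 8 (Supt4a, Cdk9 and Ccnt1) and in 8.86% of all promoters. Cdk9 carried this ETS core at 2 places, both visible in the sequence above. The CCAAT box was found in 2 of the 8 against 37.4% of all promoters, and the TATA box, searched as TATAAA, in 1 of the 8 (Nelfb) against 13.6%. This match in Nelfb began at -229 from the start that RefSeq gives, and whether it acts as a TATA box was not tested. No match to GCATGCG, taken from the NRF1 site, lay in these 8 windows, against 3.58% of all promoters. The matches in the member promoters did not overlap one another. The member promoters had a median GC content of 62.5% and a median of 32 CG pairs, against 52.7% and 7 over all promoters. These letters describe the sequence, and factor binding was not measured.

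Library totals ran from 16825251 to 22201892 counts. The 9 pairs of replicates of the same time point gave a chi-square of 7.78 to 90.9 per degree of freedom over genes, which is more than counting error. These values cannot show that the samples were independent. Each library was taken as a sample of its own because the labels name biological replicates. Levels below are CPM, counts scaled to a common library size with TMM over the 9 libraries, and levels per kilobase of exon (FPKM) are used wherever genes are compared with each other. Germ cell transcripts were present, as 7 of 8 germ cell markers exceeded 1 CPM at each time point. The summed level of the germ cell markers was 1796 to 2741 CPM at 0 h and 2102 to 2249 CPM at 48 h. All 7 markers of fibroblasts and stroma also exceeded 1 CPM at each time point, so passing this level does not single out a cell type. The 7 markers of fibroblasts and stroma summed to 309 to 393 CPM at 0 h, 2161 to 2436 CPM at 24 h and 2801 to 3058 CPM at 48 h, and the 6 of peritubular myoid cells to 13.7 to 15.8, 149 to 207 and 267 to 317 CPM. The 8 Sertoli markers summed to 20.3 to 21.9 CPM at 0 h and 45.9 to 48.1 CPM at 48 h with Fshr at 3 counts or fewer in all 9 libraries, and the 6 Leydig markers to 4.53 to 6.77 and 25.6 to 31.9 CPM with Lhcgr at that floor. The 4 endothelial markers went from 42.1 to 46.6 CPM at 0 h to 8.71 to 9.62 CPM at 48 h, and the 5 macrophage markers from 15.7 to 18.0 CPM to 6.20 to 9.11 CPM. Single markers could move against their sum. At 48 h against 0 h, edgeR called 4 of 7 Sertoli markers tested higher and 1 lower (adjusted p up to 0.05). Fibroblasts and stroma also had 4 and 1 of 7, and endothelium 1 and 2 of 4. The other lists had calls in 1 direction only, where 31.6% of all genes tested were called. At 24 h against 0 h, 4 Sertoli markers were higher and 3 lower. The germ cell sums of 0 h and 48 h overlapped, and the sums of the other 6 lists did not. Between 24 h and 48 h, the germ cell, Sertoli, Leydig and macrophage sums overlapped. The part of these sums in the members' values was not tested. In such bulk samples, fewer cells of a type and less RNA per cell cannot be told apart.

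Per kilobase of exon, the members spanned about an order of magnitude, and their order changed little over time. Supt4a, the small zinc-finger subunit of DSIF, had the highest FPKM at 0 h (103 ± 24.7, SD, n = 3), 24 h (99.5 ± 18.4) and 48 h (102 ± 8.46). Ccnt1, the cyclin subunit of P-TEFb, had the lowest at 0 h (9.25 ± 2.43), 24 h (8.44 ± 0.356) and 48 h (8.26 ± 0.166). Supt5 ranked second at each time point, at 83.2 ± 16.4 FPKM at 0 h and 63.0 ± 5.44 at 48 h, and its libraries overlapped those of Supt4a at 0 h only. At 0 h the order went on with Gtf2e2 (68.4 ± 4.22), Nelfe (51.8 ± 11.2), Nelfb (50.2 ± 10.9), Supt6 (39.6 ± 5.41), Cdk9 (35.8 ± 5.92), Nelfa (25.6 ± 3.48) and Gtf2e1 (18.3 ± 0.672). Among these 0 h neighbours, the libraries of Supt5 and Gtf2e2, of Nelfe and Nelfb, of Nelfb and Supt6, and of Supt6 and Cdk9 overlapped, while Gtf2e2 lay above Nelfe, Cdk9 above Nelfa, Nelfa above Gtf2e1 and Gtf2e1 above Ccnt1 in every library. At 48 h, Nelfe (54.3 ± 2.15) stood ahead of Gtf2e2 (48.6 ± 1.81), Supt6 (48.1 ± 2.35) and Nelfb (47.1 ± 3.47), and the libraries of these last 3 overlapped from neighbour to neighbour. Gtf2e2 thus stood above Nelfe in every 0 h library and below it in every 48 h library. The gap at 0 h was narrow, between 63.6 FPKM for the lowest Gtf2e2 library and 63.4 FPKM for the highest Nelfe library. The longest transcripts of these genes differ in GC content (43.6% for Gtf2e2 and 57.9% for Nelfe). Of the 2 P-TEFb members, Cdk9 stood above Ccnt1 at every time, at 33.0 ± 3.04 FPKM against 8.26 ± 0.166 FPKM at 48 h. Ccnt2, the other cyclin T, is not a member and is given below. These FPKM divide by all annotated exon bases (4611 for Cdk9 and 9157 for Ccnt1), and the isoforms expressed were not examined.

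**Figure D1:**
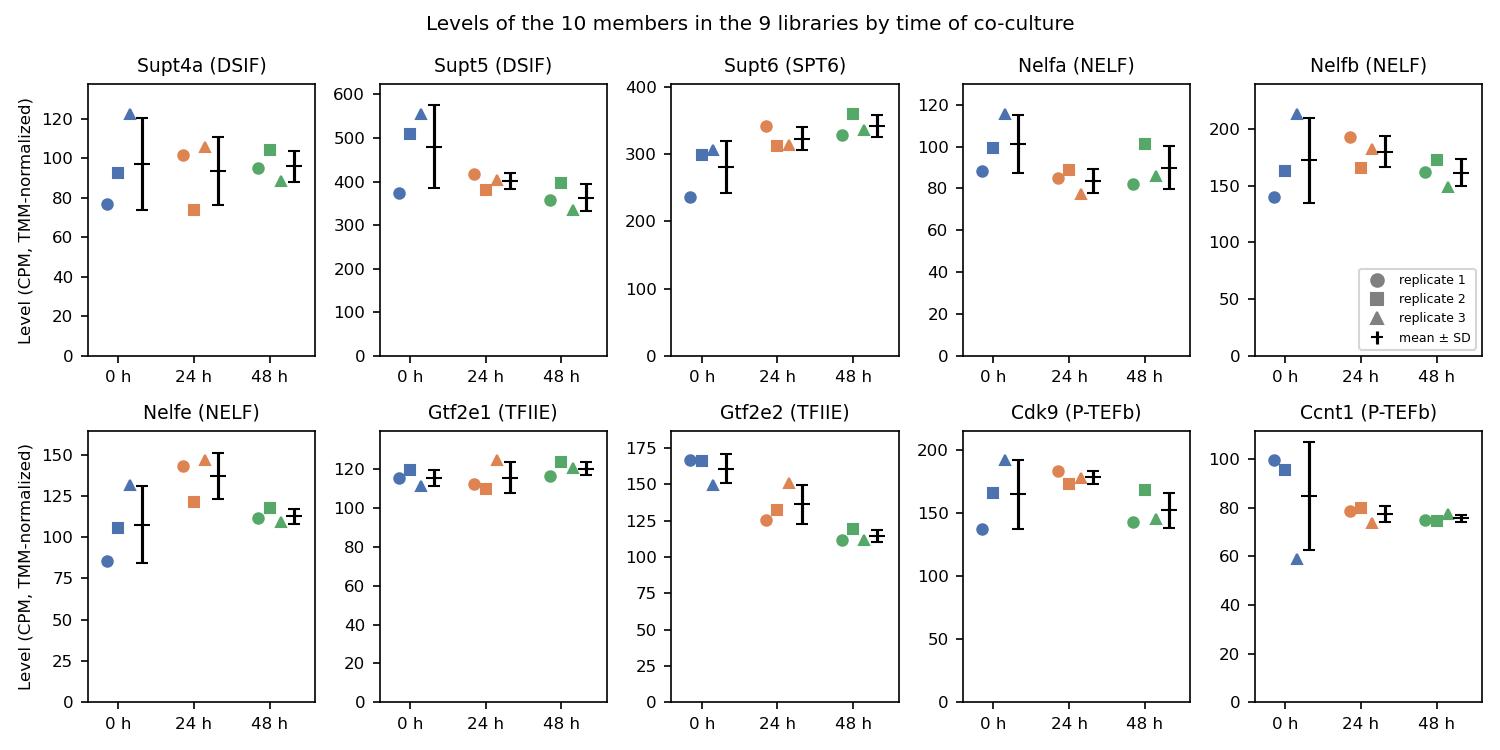
Level of each of the 10 members in CPM (y axes start at 0) at 0 h, 24 h and 48 h (x axis), with 1 point per library, its shape giving the replicate number, and the mean ± SD in black (n = 3). Gtf2e2 averaged 161, 136 and 114 CPM, Gtf2e1 stayed between 109 and 124 CPM, and 8 of the 10 members had their largest SD at 0 h.

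In the 3 comparisons, 0, 1 and 2 of the 10 members passed edgeR's test, and no member's estimate reached 2-fold. Whether these counts depart from the shares over all genes was not tested. From 0 h to 24 h, edgeR's quasi-likelihood test (p-values adjusted by Benjamini-Hochberg over all genes) called 0 of the 10 members, while it called 25.5% of all 17592 genes tested (11.4% higher and 14.2% lower). At an unadjusted p under 0.05 it also gave 0 members, and DESeq2 gave 0 adjusted and 0 unadjusted. From 0 h to 48 h, 1 of 10 members passed, Gtf2e2, which was lower, against 31.6% of 17755 genes (13.0% higher and 18.5% lower). From 24 h to 48 h, 2 of 10 passed, Nelfe and Cdk9, both lower, against 21.3% of 17499 genes (8.61% higher and 12.7% lower). The median log2 fold change of the members was -0.02, -0.10 and -0.08 in the 3 comparisons, and that of all genes tested 0.01, 0.02 and 0.00. The median size of change, without sign, was 0.17, 0.14 and 0.12 for the members and 0.36, 0.42 and 0.22 for all genes tested. The 95% intervals of all 10 members stayed within a 2-fold change, with bounds from -0.61 to 0.73 for 24 h against 0 h, -0.75 to 0.57 for 48 h against 0 h and -0.45 to 0.31 for 48 h against 24 h. The comparisons share libraries, so their values are given side by side and not as independent evidence.

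**Figure D2:**
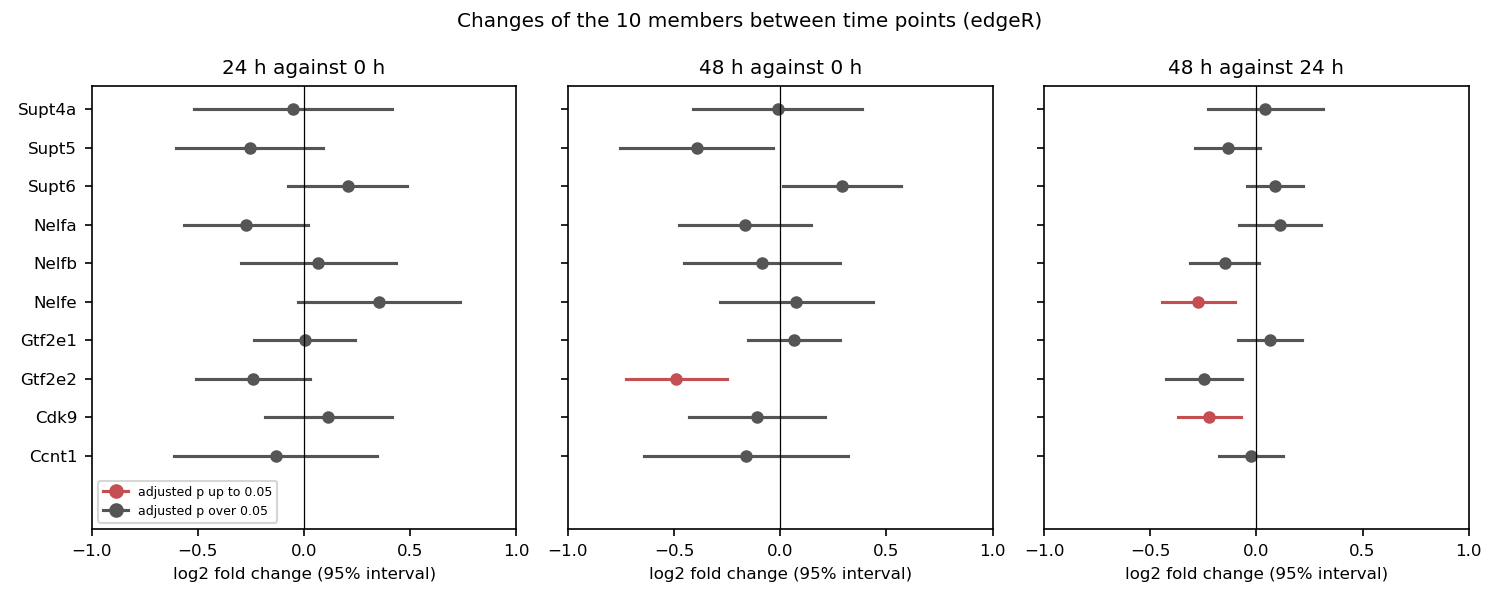
Log2 fold change of the 10 members (points) with its 95% interval (lines) in each of the 3 comparisons, red where the adjusted p of edgeR's quasi-likelihood test was up to 0.05. Red marks Gtf2e2 from 0 h to 48 h and Nelfe and Cdk9 from 24 h to 48 h, and no interval reaches a log2 change of 1 in either direction.

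Of the TFIIE pair, Gtf2e2 fell from 0 h to 48 h and Gtf2e1 did not pass any test. Gtf2e2 (ENSMUSG00000031585, chr8:33731833-33777173, plus strand, GRCm38) encodes the beta subunit of TFIIE. Its level was 167, 166 and 149 CPM at 0 h, 125, 132 and 151 CPM at 24 h, and 112, 119 and 112 CPM at 48 h. Each 48 h library lay below every library of 0 h and 24 h, whereas 1 library of 24 h reached into the 0 h range. The fall from 0 h to 48 h was -0.49 on the log2 scale (SE 0.10, 95% interval -0.73 to -0.25), to 0.713 times the 0 h level, with an adjusted p of 0.0093 by edgeR's quasi-likelihood test and 0.00075 by DESeq2. It was called under each of the 8 other settings, with -0.66 under GC and length offsets, and leaving out 48 h replicate 1 or 48 h replicate 3 moved it past the threshold (-0.47 in both, adjusted p = 0.0588 and 0.0572 by edgeR). From 0 h to 24 h the log2 value was -0.24 (SE 0.12, adjusted p = 0.179), and from 24 h to 48 h it was -0.25 (SE 0.08, adjusted p = 0.0529), both by edgeR's quasi-likelihood test. In the fit corrected for GC content and transcript length by offsets, these steps were called too, at -0.31 (adjusted p = 0.0369 by edgeR) and -0.36 (adjusted p = 0.0094). The step from 24 h to 48 h was also called by edgeR with library size alone (adjusted p = 0.0442), with no expression filter (0.0327) and without 24 h replicate 1 (-0.32, 0.0363).

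Gtf2e1 (ENSMUSG00000022828, chr16:37509790-37539789, minus strand) encodes the alpha subunit, which contacts the polymerase and TFIIH. Its level was 115, 119 and 111 CPM at 0 h, 112, 109 and 124 CPM at 24 h, and 117, 123 and 120.2 CPM at 48 h. The 3 groups overlapped, and the coefficient of variation at 0 h was 3.67%, the lowest of the members. The log2 change from 0 h to 48 h was 0.06 (SE 0.09, 95% interval -0.15 to 0.28, adjusted p = 0.653 by edgeR's quasi-likelihood test). A fall of the size seen for Gtf2e2 lies outside that interval. With GC and length offsets, the values turned to -0.08 at 24 h and -0.17 at 48 h against 0 h, and edgeR called neither (adjusted p = 0.755 and 0.456).

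Since both TFIIE counts come from the same libraries, their ratio within a library does not depend on how libraries are scaled. The log2 ratio of Gtf2e1 to Gtf2e2 counts was -0.53, -0.48 and -0.43 at 0 h, -0.16, -0.27 and -0.28 at 24 h, and 0.06, 0.05 and 0.11 at 48 h. The 3 time points did not overlap, and every 24 h library lay between the 0 h and the 48 h libraries. Counts depend on gene length, so only the change of the ratio is read, which was 0.55 from 0 h to 48 h on the log2 scale. An exact permutation test over the 9 libraries gave p = 0.00357, the smallest that its 1680 assignments allow, and 0.0179 after Benjamini-Hochberg adjustment over the 5 ratios computed. The change lay between 0.52 and 0.58 whichever library was left out, and its adjusted p by the exact permutation test then stayed at up to 0.0179. The longest transcripts of the pair have similar GC contents (42.2% and 43.6%). No window of Gtf2e2 matched another gene, while 6.04% of the windows of Gtf2e1 matched AU015228, whose reads could be counted for either.

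**Figure D3:**
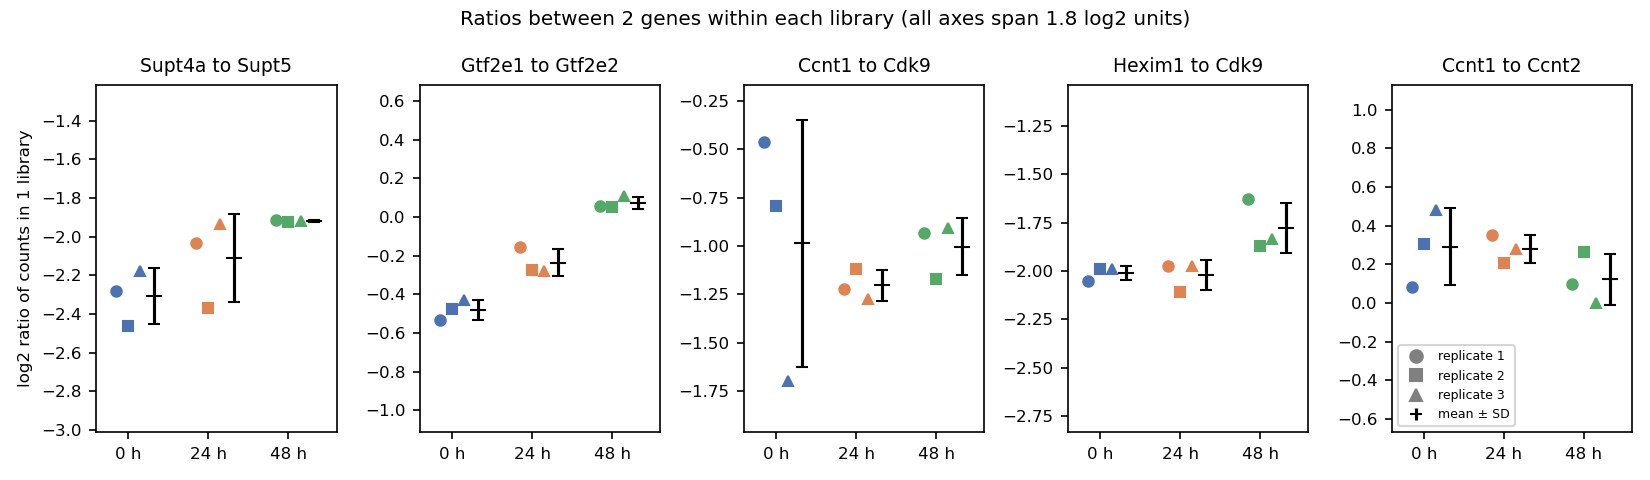
Log2 ratio of the counts of 2 genes within each library (y axes, all of the same length) at 0 h, 24 h and 48 h (x axis), with points by replicate number and the mean ± SD in black (n = 3). The ratio of Gtf2e1 to Gtf2e2 separates the 3 time points (means -0.48, -0.24 and 0.07), and the other 4 ratios overlap between at least 2 of them.

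In DSIF, the transcript of the large subunit was lower at 48 h than at 0 h without passing the test, and that of the small subunit showed no direction that held. Supt5 (ENSMUSG00000003435, chr7:28314891-28338746, minus strand) encodes SPT5, which bridges the polymerase clamp and carries sites for P-TEFb. Its level was 374, 509.8 and 556 CPM at 0 h, 417, 381 and 403 CPM at 24 h, and 358, 397 and 335 CPM at 48 h. The 0 h library of replicate 1 lay inside the range of the later libraries, and the other two 0 h libraries lay above all of them. The log2 value was -0.26 from 0 h to 24 h (SE 0.15, adjusted p = 0.257) and -0.39 from 0 h to 48 h (SE 0.15, 95% interval -0.75 to -0.03, adjusted p = 0.0925) by edgeR's quasi-likelihood test. Without 0 h replicate 1, edgeR called both, at -0.40 (adjusted p = 0.0219) and -0.54 (adjusted p = 0.0082), and a fit over all 9 libraries called the second (-0.39, adjusted p = 0.0397). With offsets for GC content and length, the value for 48 h against 0 h shrank to -0.13. An antisense gene, Gm44709, overlaps 7.51% of the exon bases of Supt5, and the strand setting of the counting is not given in the sources used here, so reads of the pair cannot be told apart.

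Supt4a (ENSMUSG00000020485, chr11:87737552-87743623, plus strand) encodes SPT4, the partner of SPT5. Its level was 77.0, 92.6 and 123 CPM at 0 h, 102, 73.8 and 106 CPM at 24 h, and 95.0, 105 and 88.7 CPM at 48 h. The groups overlapped throughout, and the lowest library of all was 24 h replicate 2. Of its windows, 28.1% matched other genes, most of them the near-identical copy Supt4b (25.0%), which was not analysed here. How reads shared by the pair were counted is not known, so the level of Supt4a is uncertain. Its log2 value against 0 h was -0.05 at 24 h (SE 0.20) and -0.01 at 48 h (SE 0.17), and -0.07 and 0.0014 with GC and length offsets, with no call by edgeR. The log2 ratio of Supt4a to Supt5 counts had means of -2.31 ± 0.143, -2.11 ± 0.228 and -1.92 ± 0.0055 (SD, n = 3) at 0 h, 24 h and 48 h, with p = 0.075 by the exact permutation test and 0.125 after adjustment over the 5 ratios. Each 48 h library had a higher ratio than any other library, by a very narrow gap (-1.925 in 48 h replicate 2 against -1.932 in 24 h replicate 3). The ratio of 24 h replicate 2 lay among the 0 h libraries. Without 24 h replicate 2, the exact permutation test gave p = 0.00357 and an adjusted p of 0.0089.

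Of the 3 NELF members, Nelfe was called from 24 h to 48 h and Nelfa and Nelfb in no comparison, and Nelfcd, the remaining NELF subunit, was called in none either. Nelfe (ENSMUSG00000024369, chr17:34850391-34856372, plus strand) encodes the subunit that binds nascent RNA. Its level was 85.4, 106 and 132 CPM at 0 h, 143, 121 and 147 CPM at 24 h, and 111, 118 and 109 CPM at 48 h. All 24 h libraries lay above all 48 h libraries, by a narrow gap between 121 and 118 CPM, and the 0 h libraries, from 85.4 to 132 CPM, overlapped both. From 24 h to 48 h the fall was -0.27 on the log2 scale (SE 0.08, 95% interval -0.45 to -0.10), with an adjusted p of 0.0325 by edgeR's quasi-likelihood test and 0.0236 by DESeq2. Of the 8 other settings 5 called it. edgeR no longer called it without 24 h replicate 1 (adjusted p = 0.105), 24 h replicate 3 (0.129), 48 h replicate 1 (0.13) or 48 h replicate 3 (0.0972), and the 3 settings that lost it included the fit over all 9 libraries (0.328) and the GC and length offsets, where the value was -0.06 (0.605). Against 0 h, the log2 values were 0.35 at 24 h (SE 0.16, adjusted p = 0.162) and 0.08 at 48 h (SE 0.15, adjusted p = 0.754) by edgeR's quasi-likelihood test. edgeR with the GC and length offsets called both as rises (0.38, adjusted p = 0.0095, and 0.33, adjusted p = 0.0087), and without 0 h replicate 3 it called the first (0.54, adjusted p = 0.016).

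Nelfb (ENSMUSG00000013465, chr2:25199712-25211489, minus strand), which encodes a subunit of the scaffold that joins the RNA-binding and the polymerase-binding arms, had 140.3, 163 and 214 CPM at 0 h, 193, 166 and 182 CPM at 24 h, and 162, 173 and 149 CPM at 48 h. Nelfa (ENSMUSG00000029111, chr5:33897916-33936413, minus strand), whose product contacts the polymerase, had 88.5, 99.3 and 116 CPM at 0 h, 84.8, 88.6 and 77.2 CPM at 24 h, and 82.2, 101 and 86.2 CPM at 48 h. The groups of both genes overlapped in each comparison, and the 0 h library of replicate 3 was the highest of all 9 for each. By edgeR's quasi-likelihood test, the log2 value for 24 h against 0 h was 0.07 for Nelfb (SE 0.16, adjusted p = 0.804) and -0.27 for Nelfa (SE 0.13, 95% interval -0.57 to 0.02, adjusted p = 0.158). For 48 h against 0 h it was -0.08 for Nelfb (adjusted p = 0.729 by edgeR) and -0.16 for Nelfa (adjusted p = 0.393). With GC and length offsets, the values for 24 h and 48 h against 0 h were 0.16 and 0.18 for Nelfb, so that the sign turned at 48 h, and -0.20 and 0.03 for Nelfa, with none of these called by edgeR. From 24 h to 48 h, the log2 value was -0.15 for Nelfb (adjusted p = 0.166 by edgeR) and 0.11 for Nelfa (adjusted p = 0.378). Nelfcd, which contributes to the arm of NELF that contacts the polymerase, had 98.5 ± 13.2, 108 ± 8.65 and 91.5 ± 7.57 CPM (SD, n = 3) at 0 h, 24 h and 48 h, with -0.24 from 24 h to 48 h (SE 0.08, adjusted p = 0.0573 by edgeR's quasi-likelihood test). No window of Nelfa, Nelfb or Nelfe matched another gene.

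In P-TEFb, the kinase transcript was lower at 48 h than at 24 h and the cyclin transcript did not pass a test. Cdk9 (ENSMUSG00000009555, chr2:32705784-32713076, minus strand) had 137, 166 and 192 CPM at 0 h, 183, 173 and 178 CPM at 24 h, and 143, 168 and 145 CPM at 48 h. The 24 h libraries lay above all 48 h libraries, again by a narrow gap (173 against 168 CPM), and the 0 h libraries spanned the range of both. The fall from 24 h to 48 h was -0.22 on the log2 scale (SE 0.07, 95% interval -0.37 to -0.07, adjusted p = 0.0414 by edgeR's quasi-likelihood test). None of the 8 other settings called it, with an adjusted p of 0.0597 by DESeq2 and 0.0577 to 0.341 in the edgeR settings. It was also lost without 24 h replicate 1, 2 or 3 (adjusted p = 0.123, 0.0773 and 0.11 by edgeR) and without 48 h replicate 1 or 3 (0.221 and 0.124). Against 0 h, the log2 value was 0.11 at 24 h (SE 0.13, adjusted p = 0.583) and -0.11 at 48 h (SE 0.14, adjusted p = 0.594) by edgeR's quasi-likelihood test. Under the GC and length offsets these were 0.18 and 0.0097, and edgeR called neither.

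Ccnt1 (ENSMUSG00000011960, chr15:98538689-98570923, minus strand) had 99.5, 95.4 and 59.0 CPM at 0 h, 78.6, 79.7 and 73.6 CPM at 24 h, and 74.9, 74.6 and 77.4 CPM at 48 h. The 0 h library of replicate 3 was the lowest of all 9 and the other two 0 h libraries the highest, so the later libraries lay inside the 0 h range. The log2 value was -0.13 at 24 h (SE 0.20, adjusted p = 0.693) and -0.16 at 48 h (SE 0.20, adjusted p = 0.6) against 0 h by edgeR's quasi-likelihood test. Without 0 h replicate 3, edgeR called both as falls (-0.32, adjusted p = 0.0391, and -0.34, adjusted p = 0.0262), and with GC and length offsets it called the second (-0.33, adjusted p = 0.0213). Between 24 h and 48 h the value was -0.02 (95% interval -0.17 to 0.13). Of its windows, 7.51% matched an antisense gene, 9330020H09Rik.

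The log2 ratio of Ccnt1 to Cdk9 counts ranged from -1.70 to -0.46 among the 0 h libraries, and from -1.27 to -0.91 among the later ones. The exact permutation test gave an adjusted p of 0.736 over the 5 ratios, and 0.0179 without 0 h replicate 3. Ccnt2, the other cyclin T of P-TEFb, had 71.1 ± 26.3, 63.8 ± 4.62 and 69.8 ± 7.59 CPM (SD, n = 3) at 0 h, 24 h and 48 h, and the ratio of Ccnt1 to Ccnt2 gave an adjusted p of 0.451 by the exact permutation test. Hexim1, whose product holds P-TEFb inactive on the 7SK RNA, had 41.0 ± 7.57, 44.0 ± 3.48 and 44.4 ± 3.14 CPM. The log2 ratio of Hexim1 to Cdk9 counts was -2.05, -1.99 and -1.99 at 0 h, -1.97, -2.11 and -1.98 at 24 h, and -1.63, -1.87 and -1.83 at 48 h. Every 48 h library had more Hexim1 per Cdk9 count than any library of 0 h or 24 h, with p = 0.0357 by the exact permutation test and 0.0893 after adjustment over the 5 ratios.

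Supt6 (ENSMUSG00000002052, chr11:78206746-78245987, minus strand) had 237, 299 and 307 CPM at 0 h, 342, 313 and 313 CPM at 24 h, and 328, 360.3 and 336 CPM at 48 h. All later libraries exceeded all 0 h libraries, although 0 h replicate 3 (307 CPM) came close to the lowest later ones (313 CPM). Of its windows, 2.72% matched Sdf2, which overlaps it on the opposite strand. The log2 value was 0.20 at 24 h (SE 0.12, adjusted p = 0.268) and 0.29 at 48 h (SE 0.12, 95% interval 0.01 to 0.57, adjusted p = 0.104) against 0 h by edgeR's quasi-likelihood test. The value at 48 h was called by edgeR with library size alone (0.40, adjusted p = 0.0375), with all 9 libraries in the fit (0.29, adjusted p = 0.0475), with GC and length offsets (0.35, adjusted p = 0.0267) and without 0 h replicate 3 (0.38, adjusted p = 0.043). Supt6 and Supt5 act on the same elongating polymerase, and their values at 48 h against 0 h had opposite signs. Neither value passed edgeR's quasi-likelihood test (adjusted p = 0.104 for Supt6 and 0.0925 for Supt5). The signs were the same in each of the 8 other settings and without each library in turn. Those fits share libraries, so a kept sign is not separate evidence.

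The members were measured least evenly at 0 h. Their median coefficient of variation was 18.1% at 0 h, 6.97% at 24 h and 6.12% at 48 h, against 14.8%, 5.82% and 6.23% over the 5140 genes with more than 50 CPM. For 7 of the 10 members, replicate 1 was the lowest 0 h library and replicate 3 the highest, and the exceptions were Gtf2e1, Gtf2e2 and Ccnt1. Replicate 3 exceeded replicate 1 by up to 1.59-fold (Supt4a), and for Ccnt1 it held 0.593 times the level of replicate 1. This difference moved with GC content across genes, with a Spearman correlation of 0.661 over 15617 genes and 0.648 over the 10 members, where the points share the same 2 libraries. The members at 50.2% to 57.9% GC, from Supt4a to Nelfe, all had the higher level in replicate 3, and Gtf2e1, Gtf2e2 and Ccnt1, at 42.2% to 44.8% GC, had the lower. The part of this difference in the comparisons with 0 h was not tested beyond the fits with GC and length offsets.

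**Figure D4:**
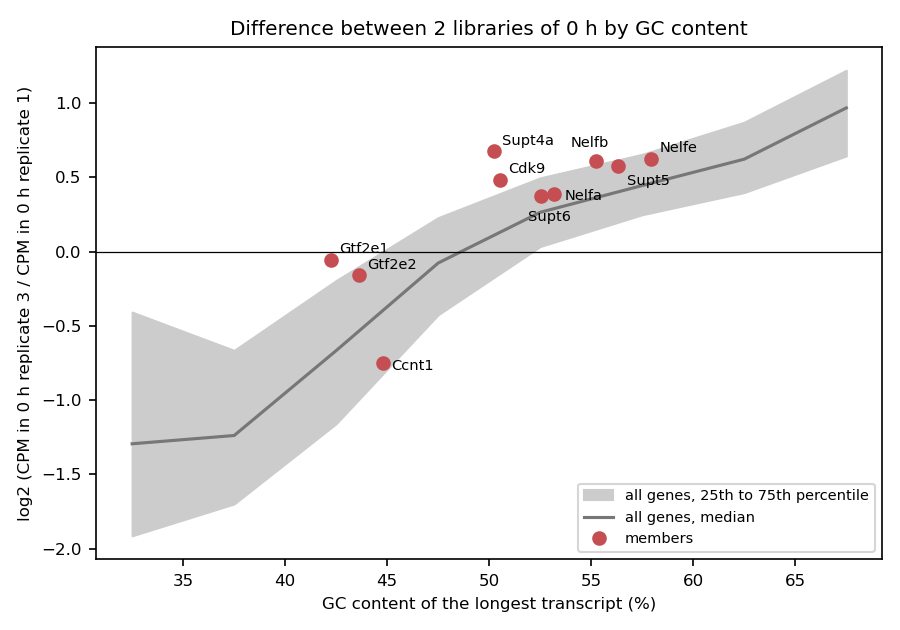
Log2 ratio of the CPM in 0 h replicate 3 to that in 0 h replicate 1 (y axis) against the GC content of the longest transcript in percent (x axis), with the median (line) and the 25th to 75th percentile (grey) of all genes in steps of GC content and the 10 members in red. The 7 members above 50% GC lie above 0, up to 0.67 for Supt4a, and Ccnt1 lies at -0.75.

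Around the members, 11 lists hold 95 further factors that act with polymerase II, of which 94 matched a gene of the files and 93 were tested. edgeR's quasi-likelihood test called 10 of them from 0 h to 24 h (2 higher, 8 lower), 13 from 0 h to 48 h (6 higher, 7 lower) and 16 from 24 h to 48 h (12 higher, 4 lower), where 25.5%, 31.6% and 21.3% of all genes tested were called. The median log2 fold changes of these factors were 0.00, 0.05 and 0.01. With GC and length offsets edgeR called 31 and 35 against 0 h at 24 h and 48 h, and with all 9 libraries in the fit it called 18, 20 and 3. The share of all genes called in these other fits is not given here, so their counts cannot be set against it. These counts moved with the library left out. For 24 h against 0 h the count was 27 without 0 h replicate 3, 3 without 0 h replicate 2, 24 h replicate 1 or 24 h replicate 2, and 5 without 24 h replicate 3. For 48 h against 0 h the count was 26 without 0 h replicate 3, 8 without 0 h replicate 2, and 6, 7 and 5 without 48 h replicate 1, 2 and 3. For 48 h against 24 h the count was 8 without 24 h replicate 1, 6 without 48 h replicate 1 and 8 without 48 h replicate 3. Of the remaining partners of the member complexes, 0 of 2 tested were called in any comparison. TFIIH, which TFIIE recruits, had 0 of 10 called against 0 h at 24 h and at 48 h, and 3 of 10 from 24 h to 48 h (Ercc2, Gtf2h2 and Gtf2h3). These calls were kept in 1, 1 and 4 of the 6 fits that left out a library, and edgeR gave adjusted p-values of 0.103, 0.126 and 0.0858 without 48 h replicate 1. The GC and length offsets left Ercc2 at -0.08 (adjusted p = 0.396 by edgeR) and Gtf2h2 at 0.11 (0.358). On the opposite strand, Gm26852 and Klc3 overlap 24.6% and 17.8% of the exon bases of Ercc2. Of the polymerase subunits, 1 of 13 was called (Polr2b, 0.44 at 48 h against 0 h, adjusted p = 0.0478 by edgeR), a call that was lost without 0 h replicate 2 (adjusted p = 0.0822) or any 48 h library (0.123, 0.123 and 0.142). Integrator, which cleaves RNA at paused polymerase, had 6 of 14 called from 24 h to 48 h, against 21.3% of all genes. Of these, 5 were higher, against 8.61% of all genes. The longest transcripts of these 5 had 38.0% to 43.3% GC, where the median over 15617 genes was 49.8%. With GC and length offsets, Ints12 lost its call as higher (0.23, adjusted p = 0.261 by edgeR), and the others that were higher were not followed under these offsets. The gene that was lower, Ints11 (-0.29), lost its call without 24 h replicate 1 or 3 (adjusted p = 0.0845 and 0.123 by edgeR), without 48 h replicate 1 or 3 (0.148 and 0.0979) and with GC and length offsets (0.152). Pusl1 overlaps 22.7% of the exon bases of Ints11 on the opposite strand.

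By the naming rule, 19 of these factors had 29 calls, and 12 calls on 8 genes were kept by edgeR's quasi-likelihood test whichever library was left out. Eloa, the large subunit of the elongation factor elongin, had 32.3 ± 1.86, 11.9 ± 1.25 and 13.9 ± 0.622 CPM (SD, n = 3), with log2 changes against 0 h of -1.44 at 24 h and -1.22 at 48 h (adjusted p = 0.00029 and 0.00027 by edgeR). An antisense gene, Gm13008, overlaps 10.8% of the exon bases of Eloa, and reads of the pair cannot be told apart. Aff3, a scaffold of the super elongation complexes that carry P-TEFb, had 61.8 ± 2.35, 32.5 ± 4.01 and 63.8 ± 3.12 CPM, so that it fell by 0.92 on the log2 scale to 24 h (adjusted p = 0.0019 by edgeR) and rose by 0.98 to 48 h (adjusted p = 0.00031). Its paralog Aff1 fell by 0.77 to 24 h (adjusted p = 0.005 by edgeR), from 62.5 ± 5.48 to 36.6 ± 3.69 CPM. Jmjd6, linked to release of P-TEFb from 7SK, was lower at 48 h than at 0 h (-0.81, adjusted p = 0.0081 by edgeR), and so was Tcea2, a TFIIS form known from testis (-0.84, adjusted p = 0.0071). Ints12 of Integrator was higher at 48 h than at 0 h (0.75, adjusted p = 0.0018 by edgeR) and 24 h (0.50, adjusted p = 0.0048), and Iws1, a partner of SPT6, was higher at 48 h than at 24 h (0.41, adjusted p = 0.0017). With GC and length offsets edgeR called none of these last 3 (adjusted p = 0.307, 0.261 and 0.268), and the fit over all 9 libraries did not call Iws1 (0.0879). Rn7sk, the gene of the 7SK RNA itself, had 1.68 to 13.5 CPM at 0 h, 6.72 to 9.94 at 24 h and 47.2 to 50.9 at 48 h (2.55 from 24 h to 48 h, adjusted p = 1.95e-05 by edgeR). That RNA has no poly-A tail and many near-identical copies in the genome, so its value in these libraries is uncertain.

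**Figure D5:**
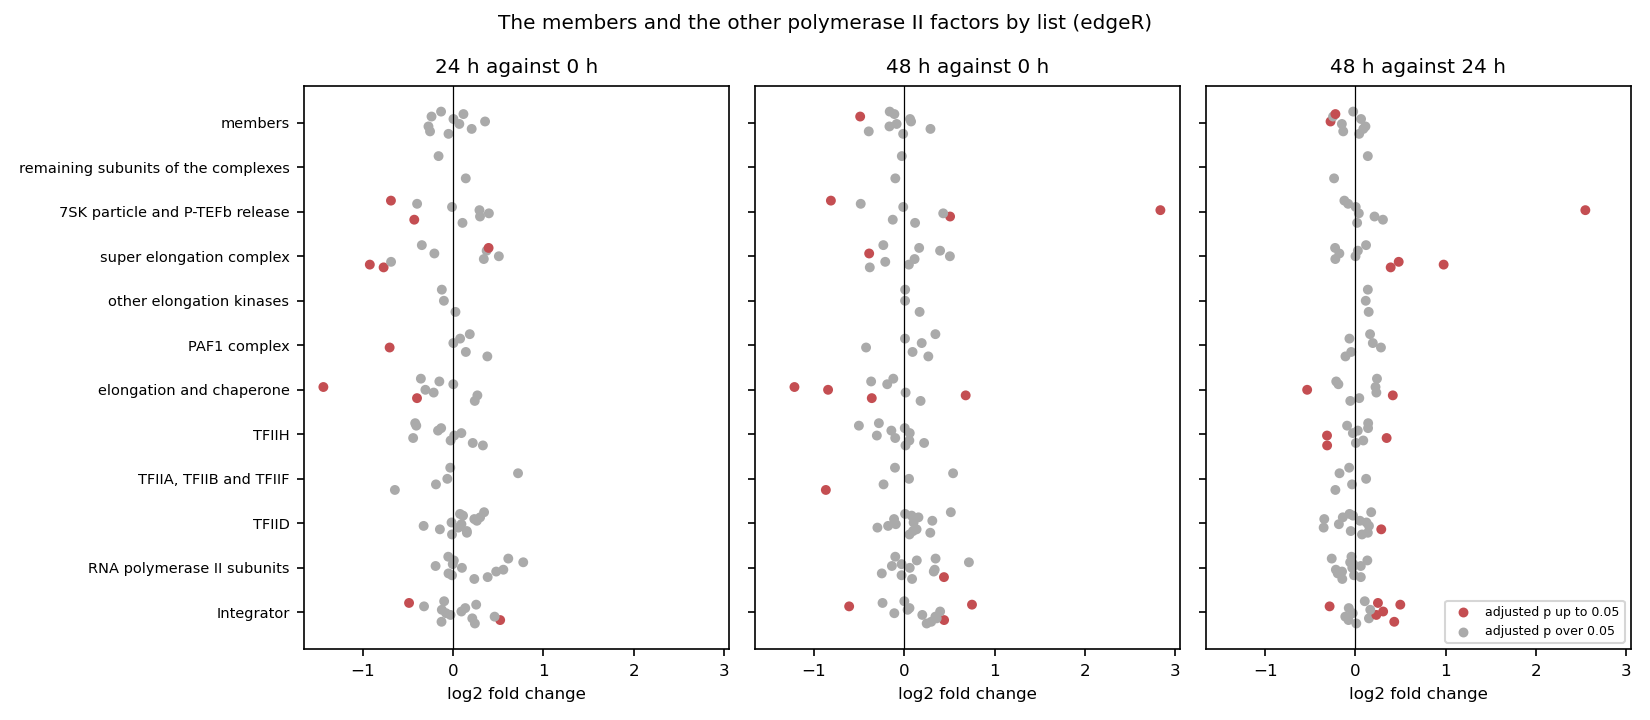
Log2 fold change of the 10 members (top row) and of the 93 further polymerase II factors tested, by list (y axis), in the 3 comparisons, with 1 point per gene, red where the adjusted p of edgeR's quasi-likelihood test was up to 0.05. The members lie between -0.49 and 0.35; the highest point is Rn7sk at 2.84 (48 h against 0 h) and the lowest is Eloa at -1.44 (24 h against 0 h).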

How the data were processed

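The data are 9 libraries of EGFP-SSCs, 3 at each of 0 h, 24 h and 48 h. The paper reports flow sorting of SSCs at different stages of culture without naming 0 h. The authors deposited counts, whole numbers of reads on each of 46078 Ensembl genes, without normalization. The submitters' processing notes name fastp, HISAT2, featureCounts and GRCm38, with no version, annotation release or strand setting. Symbols, positions and exons came from GENCODE M21 (GRCm38). Depth was 16825251 to 22201892 counts per library, and a gene at 3 counts or fewer was taken as at the floor, which covers counting error only.

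Each comparison used the 6 libraries of its groups, with filterByExpr, TMM and edgeR's quasi-likelihood test (two-sided, version 4.0.16, R 4.3.3), adjusted by Benjamini-Hochberg over the whole table and read at 0.05. CPM are TMM-scaled over 9 libraries, and FPKM divide them by the union of exons in kilobases. Log2 ratios of counts within a library were compared with a two-sided exact permutation test over the 3 groups, adjusted over 5 ratios. To find shared sequence, windows of 75 bases from each longest transcript were matched with BLAST 2.17.0 at 97% identity. Motifs were searched in RefSeq promoters of GRCm38.p6 on both strands.

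Alternatives were DESeq2 1.42.0, edgeR scaled with its size factors or with library size alone, no filter or a minimum of 10 counts everywhere, 1 fit over all 9 libraries, a block for the replicate number, offsets from natural splines of GC content (5 degrees of freedom) and length (4), and each library left out in turn. For ratios they were 1 added to both counts, the block and the libraries left out. The edgeR and DESeq2 fits were run on simulated counts for 48 h against 0 h only. These counts had less spread between replicates than the data and no library difference by GC content. That run therefore does not show how the fits perform on the 0 h libraries here. All 10 members are named. From the 11 lists of further factors, the rule names the genes of the ratios and up to 3 genes per list with the largest change among those called with at least 1 CPM in 1 group. Of these, values are given for the genes of the ratios, those whose call was kept with each library left out, and Polr2b, Ints11 and the 3 of TFIIH. Nelfcd was added after its values were seen, as was this choice. The 7 marker lists were written from general knowledge. Members, lists, tests and alternatives were chosen with earlier results of these data known.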

Additional observations from a re-analysis of the deposited data

How the results depend on the processing

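The fall of Gtf2e2 from 0 h to 48 h and the ratio of Gtf2e1 to Gtf2e2 kept their direction in each setting tried, and all 8 other settings of the edgeR comparison called the fall. Of the members' log2 fold changes, 199 of the values in other settings kept direction and call, 11 gained a call, 11 lost one and 19 changed sign. None of the sign changes touched a called value. Replicate spread sets the limit at 0 h, where the members' coefficients of variation reached 26.3%. Scaling by library size alone raised the all-gene median by 0.11 in both comparisons with 0 h. The cause of the changes below was not tested.

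The number of members called from 0 h to 24 h became 2 with GC and length offsets. From 0 h to 48 h it became 2 with library size alone, 3 with all 9 libraries in the fit and 4 with GC and length offsets. From 24 h to 48 h it became 1 with DESeq2, with its size factors, with at least 10 counts in every library and with GC and length offsets, and 0 with all 9 libraries. Leaving out 1 library gave 0 to 2, 0 to 3 and 0 to 2 members in the 3 comparisons. The other factors called numbered 18, 20 and 3 with all 9 libraries in the fit and, against 0 h, 31 and 35 with GC and length offsets. Leaving out 1 library gave 3 to 27, 5 to 26 and 6 to 20 of them. The share of all genes called in each of these other fits is not given here, so the counts of members and factors cannot be set against it.

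Same-numbered replicates correlated at -0.36 to 0.26 in their deviations from the group means, and 2 of 9 pairs exceeded 0.1. Pairs with different numbers ran from -0.47 to 0.50. With 3 libraries per group, these correlations cannot decide whether same-numbered samples were paired. With the replicate block, 0 members were called from 24 h to 48 h (Nelfe -0.27 with an adjusted p of 0.0715 and Cdk9 -0.22 with 0.0859, by edgeR) and 5 and 8 other factors against 0 h at 24 h and 48 h. No ratio differed over time (0 of 5) under the block. The Gtf2e1 to Gtf2e2 ratio kept its 0.55 with an adjusted p of 0.0694, where the exact permutation test within numbers cannot give a p below 0.0278. Leaving out 1 library gave 1 to 2 ratios that differed, and the difference from 0 h to 48 h then ran from -0.38 to 0.24 for Ccnt1 to Cdk9 and from 0.31 to 0.45 for Supt4a to Supt5.

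These uncalled log2 values changed sign. With library size alone, Supt4a was 0.060 at 24 h and 0.10 at 48 h, Nelfb 0.027 and Cdk9 0.00071 at 48 h against 0 h. With GC and length offsets, 48 h against 0 h gave 0.0014 for Supt4a, 0.027 for Nelfa, 0.18 for Nelfb, -0.17 for Gtf2e1 and 0.0097 for Cdk9, 48 h against 24 h gave 0.056 for Supt5, 0.022 for Nelfb and -0.092 for Gtf2e1, and 24 h against 0 h gave -0.077 for Gtf2e1. For Gtf2e1 at 24 h, DESeq2 gave -0.0037, its size factors -0.0037 and all 9 libraries -0.0097. With at least 10 counts, Supt4a was 0.0054 at 48 h against 0 h and Ccnt1 8.1e-05 at 48 h against 24 h, and with the replicate block Supt4a was 0.0085 at 48 h against 0 h.

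Leaving out 1 library also turned some signs. For 24 h against 0 h the values ran from -0.19 to 0.16 for Supt4a, -0.050 to 0.27 for Nelfb, -0.051 to 0.040 for Gtf2e1 and -0.32 to 0.012 for Ccnt1. For 48 h against 0 h they ran from -0.15 to 0.21 for Supt4a, -0.20 to 0.12 for Nelfb, -0.059 to 0.26 for Nelfe and -0.22 to 0.031 for Cdk9. For 48 h against 24 h they ran from -0.099 to 0.16 for Supt4a and -0.046 to 0.0044 for Ccnt1.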
